A study of Mus musculus with 9 samples.

Results

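In Ly6Clo monocytes that lack the +37 element of Cebpa, 6 genes held between no detected transcripts and 30.2% of their wild-type level, and these genes are described here across 3 groups of sorted cells. They are Plcb1, Stxbp6, Hnmt, Vill, Gspt2 and Gm19951, 6 of the 55487 gene IDs in the tables, each found by its symbol. The groups were Ly6Chi monocytes of wild-type mice (WT Ly6Chi), Ly6Clo monocytes of wild-type mice (WT Ly6Clo) and Ly6Clo monocytes of Cebpa +37-/- mice (KO Ly6Clo), with 3 libraries each. All came from the spleen of C57BL/6 mice, were sorted and received no treatment. The labels name no Cre driver and no bounds of the deleted element, and give neither age nor sex. Whether the libraries of a group came from different animals is not stated. The sex-linked genes given below set WT Ly6Chi replicate 3 apart, so it did not share an animal with any other library. For the other libraries the question is open, and p-values therefore reflect spread among libraries that may be technical.

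The 6 genes were selected on their measured counts, chosen by the fitted fold change and adjusted p, because they were lower in KO Ly6Clo than in WT Ly6Clo monocytes. That difference is therefore given below as a description, without a test. Of the 18341 genes tested, 13 were called in that comparison (0.0709%), 11 lower (0.06%) and 2 higher (0.0109%), by edgeR's quasi-likelihood test at a Benjamini-Hochberg adjusted p under 0.05, and the targeted gene Cebpa and these 6 are among the 11. Groups that do not overlap, with KO below WT Ly6Clo, were found for all 6 and for 5.7% of all genes tested. Among the lower genes ranked by adjusted p, Stxbp6 was the last inside the threshold (log2 fold change -3.44) and Bmx, a Tec family kinase, the first outside it (log2 fold change -3.38).

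C/EBP-alpha, the protein of Cebpa, is a transcription factor that granulocyte and monocyte progenitors depend on. Ly6Chi monocytes are the classical, inflammatory subset, and many Ly6Clo monocytes, the patrolling subset, derive from them. The 5 protein-coding genes have unrelated roles. Plcb1 encodes phospholipase C-beta 1, which splits the membrane lipid PIP2 into inositol trisphosphate and diacylglycerol downstream of Gq-coupled receptors. Stxbp6 encodes amisyn, which binds syntaxins and limits the assembly of SNARE complexes in membrane fusion. Hnmt encodes histamine N-methyltransferase, which inactivates histamine inside cells with a methyl group from S-adenosylmethionine. Vill encodes villin-like protein of the villin and gelsolin family of actin-binding proteins. Gspt2 encodes eRF3b, a GTPase that partners eRF1 in translation termination and is a retroposed copy of Gspt1. Gm19951 is annotated as a long intergenic noncoding RNA.

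The genes lie on 4 chromosomes in GRCm38. Plcb1 (ENSMUSG00000051177) spans chromosome 2, 134786067 to 135475258, on the plus strand. Hnmt (ENSMUSG00000026986) spans 24002910 to 24049394 on the minus strand of the same chromosome, 111 Mb away. Stxbp6 (ENSMUSG00000046314) spans chromosome 12, 44852484 to 45074709, on the minus strand. Gm19951 (ENSMUSG00000113136) spans 99643093 to 99647221 on its plus strand, 54.6 Mb away. Vill (ENSMUSG00000038775) spans chromosome 9, 119052778 to 119071525, and Gspt2 (ENSMUSG00000071723) spans chromosome X, 94636069 to 94643244, both on the plus strand. Cebpa lies on chromosome 7, with none of them. Their sizes differ widely, from 689 kb and 36 merged exons in Plcb1 to 4.13 kb and 2 exons in Gm19951.

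The sequence before the first counted base differed in composition between these genes. It is shown for Hnmt and Gm19951, whose profiles over the 9 libraries were the most alike, and for Plcb1, which kept the smallest share of its wild-type level among the genes with such a sequence. The sequences are from RefSeq (GRCm38.p6), 5′ to 3′ on the gene's strand, and capitals mark CG dinucleotides.
Plcb1 (chr2:134785914-134786066, plus strand): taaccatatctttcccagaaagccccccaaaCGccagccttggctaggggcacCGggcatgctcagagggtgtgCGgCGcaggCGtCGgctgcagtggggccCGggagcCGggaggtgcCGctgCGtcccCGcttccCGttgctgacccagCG
Hnmt (chr2:24049395-24049629, minus strand): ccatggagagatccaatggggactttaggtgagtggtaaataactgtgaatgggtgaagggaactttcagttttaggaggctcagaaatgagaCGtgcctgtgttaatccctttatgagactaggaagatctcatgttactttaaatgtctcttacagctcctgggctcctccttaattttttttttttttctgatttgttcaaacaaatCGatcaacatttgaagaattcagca
Gm19951 (chr12:99642846-99643092, plus strand): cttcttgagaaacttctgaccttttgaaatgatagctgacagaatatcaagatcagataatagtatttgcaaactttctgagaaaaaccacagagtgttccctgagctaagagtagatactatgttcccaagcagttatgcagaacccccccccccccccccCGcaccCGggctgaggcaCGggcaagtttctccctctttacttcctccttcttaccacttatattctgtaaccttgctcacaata
The 153 bases before Plcb1 held 13 CG dinucleotides with a GC content of 69.3%. The 235 bases before Hnmt held 2 with 38.7%, and the 247 bases before Gm19951 held 3 with 45.3%. In RefSeq's 300-base windows, from 250 bases before to 50 after each start, 5 of the 6 genes were matched, all but Gspt2. The RefSeq start lay 226 bases inside the counted span for Stxbp6 and 97 bases inside it for Plcb1. Only 24 bases of the Stxbp6 window thus came before its first counted base. The C/EBP-type motif TTGCNNAA, searched on both strands, occurred in 0 of these 5 windows, and in 10.8% of all 32851 windows of that length. The TATA box TATAAA also occurred in 0 of the 5, and in 13.6% of all windows. The ETS and PU.1 core GAGGAA occurred only in that of Gm19951, on the minus strand 47 bases before the RefSeq start, and in 28.3% of all windows. No match overlapped another. A match is a description of letters, and an absent match says nothing of binding outside these windows.

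The gene totals lay between 48141590 and 173703361 counts a library. Levels below are CPM, counts scaled to a common library total after TMM scaling, as mean ± SD (n = 3 libraries). Cebpa itself was at 31.5, 51.3 and 51.6 CPM in WT Ly6Chi, at 18.2, 17.7 and 19.2 CPM in WT Ly6Clo and at 4.04, 2.89 and 2.74 CPM in KO Ly6Clo. Markers of the sort differed between the subsets as labelled: Ly6c2, which encodes the Ly6C antigen, had a mean of 946 ± 104 CPM in the Ly6Chi libraries against 3.93 ± 1.58 (WT) and 2.94 ± 0.855 CPM (KO) in Ly6Clo, and the Ly6Clo marker Treml4 had 298 ± 132 CPM against 1650 ± 201 and 1200 ± 22.3. WT Ly6Chi replicate 3 stood apart in its sex-linked genes: Xist was at 30.0 CPM there and at most 0.0417 CPM in the other 8 libraries, and the Y-linked Ddx3y was at 0 there and at 69.4 to 142 CPM in the others. In bulk libraries, fewer cells of a type and less RNA per cell cannot be told apart.

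Plcb1 was high in Ly6Chi monocytes, lower in WT Ly6Clo and near 0 in the KO. It was at 75.9, 51.9 and 88.2 CPM in the WT Ly6Chi libraries, at 10.7, 8.42 and 2.16 CPM in WT Ly6Clo and at 0, 0.021 and 0.0176 CPM in KO Ly6Clo. The groups did not overlap, and WT Ly6Clo replicate 3 was the lowest of the wild-type libraries. The KO level rests on 0, 3 and 1 counts, against 583, 1271 and 113 counts in WT Ly6Clo. Pooled over the libraries and scaled by library size, the WT Ly6Clo level was 504 times the KO level, with a 95% exact interval of 196 to 1850 that covers counting error only. Of the other genes of its list, the phosphoinositide phospholipase C pathway, the isoforms Plcb2 and Plcb3 were at 63.9 ± 14.9 and 66.9 ± 10.1 CPM in WT Ly6Clo and at 72.2 ± 27.5 and 58.8 ± 4.79 CPM in KO Ly6Clo. Plcb4, whose start lies 872.9 kb downstream of that of Plcb1, was at 0.0367, 0.00663 and 0.458 CPM in WT Ly6Clo. In KO Ly6Clo it was at 2.89, 4.38 and 1.86 CPM, higher without overlap, as were 5.22% of all genes. The difference did not pass the test (edgeR adjusted p = 0.71). These 3 isoforms were named after their values were seen.

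Stxbp6 followed the same order. It was at 121, 103 and 127 CPM in WT Ly6Chi, at 11.3, 16.2 and 8.15 CPM in WT Ly6Clo and at 1.38, 1.43 and 0.439 CPM in KO Ly6Clo. The groups did not overlap, and KO replicate 3 was the lowest of the 9. The mean fell from 11.9 ± 4.08 in WT Ly6Clo to 1.08 ± 0.559 CPM in KO Ly6Clo, which is 9.11% of it. Unlike Plcb1, the transcript stayed above the level of 3 counts in every KO library, with 89, 204 and 25 counts. Its profile over the 9 libraries was the nearest to that of Plcb1 among the 6 genes.

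Hnmt was similar in both wild-type subsets and low in the KO. It was at 7.78, 6.97 and 5.86 CPM in WT Ly6Chi, at 11.1, 5.86 and 8.69 CPM in WT Ly6Clo and at 0.466, 0.4 and 0.421 CPM in KO Ly6Clo. The wild-type groups overlapped each other, and all 6 wild-type libraries lay above all 3 KO libraries. The KO mean was 5.02% of the WT Ly6Clo mean, and the KO libraries lay close together (SD 0.0336 CPM). The level in WT Ly6Clo replicate 2 equalled that of WT Ly6Chi replicate 3 to 3 digits.

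Vill kept the most expression of the coding genes. It was at 155, 121 and 113 CPM in WT Ly6Chi, at 90.6, 73.9 and 77.0 CPM in WT Ly6Clo and at 22.9, 28.3 and 21.8 CPM in KO Ly6Clo. The groups did not overlap, and the KO mean of 24.3 ± 3.5 CPM was 30.2% of the WT Ly6Clo mean of 80.5 ± 8.9 CPM. With 1242 to 4039 counts in each KO library, this level is well above the counting limit.

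Gspt2 was not detected in the KO libraries. It had 0 counts in each of the 3, against 113, 342 and 195 counts in WT Ly6Clo and 569, 200 and 351 in WT Ly6Chi. As levels, WT Ly6Chi stood at 10.2, 4.17 and 7.17 CPM and WT Ly6Clo at 2.07, 2.27 and 3.72 CPM. A count of 0 allows up to 3 counts, or 0.021 to 0.0527 CPM in these libraries. Against the mean of that limit, 0.0401 CPM, the WT Ly6Clo level was at least 67-fold higher and the WT Ly6Chi level at least 179-fold higher. The gene is X-linked, and both Ly6Clo groups had the same sex-linked pattern, with Ddx3y at 136 ± 7.69 CPM in WT and 123 ± 8.1 CPM in KO and Xist at 2 counts in all in each group.

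The parent copy Gspt1 did not show this loss. It was at 69.4, 56.5 and 59.0 CPM in WT Ly6Clo and at 52.2, 70.8 and 65.4 CPM in KO Ly6Clo, groups that overlap (edgeR, 0.03 with an SE of 0.18 on the log2 scale, adjusted p = 1). Annotated Gspt2 transcripts shared 0 of their 3778 distinct 50-base stretches with transcripts of any other gene, Gspt1 included. The same held for Hnmt, Vill and Gm19951. Stxbp6 shared 1.02% and Plcb1 1.64%, most of it with 9630028H03Rik, an antisense gene that overlaps part of the Plcb1 span. That antisense gene was at no more than 0.0511 CPM as a group mean.

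Gm19951, the noncoding RNA, kept a larger share of its level than each coding gene but Vill. It was at 97.0, 107 and 124 CPM in WT Ly6Chi, at 214, 130 and 138 CPM in WT Ly6Clo and at 27.9, 16.4 and 24.4 CPM in KO Ly6Clo. All 6 wild-type libraries lay above all KO libraries, and WT Ly6Clo replicate 1 was the highest of the 9. The KO mean of 22.9 ± 5.91 CPM was 14.2% of the WT Ly6Clo mean of 161 ± 46.5 CPM.

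**Figure D1:**
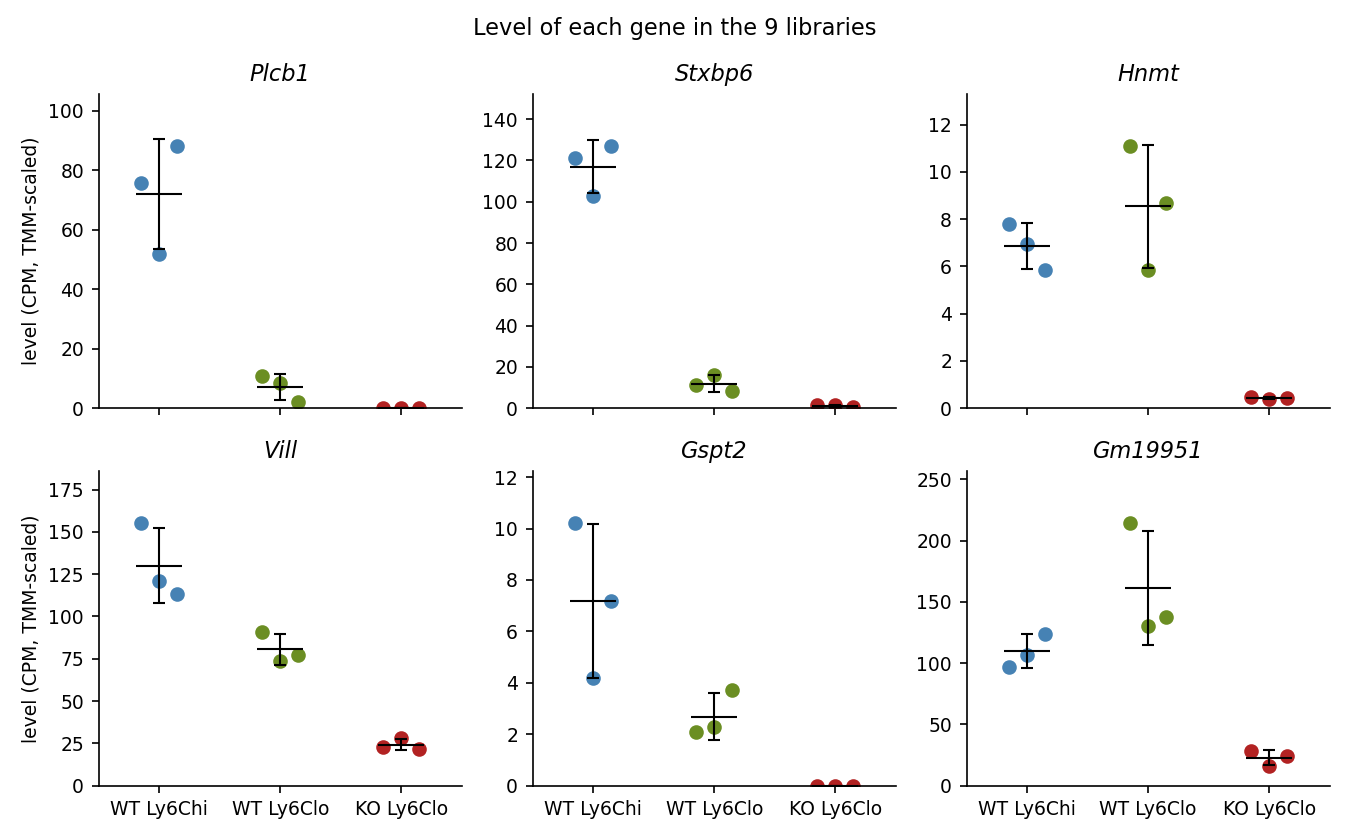
Level of each gene (vertical axis, CPM on TMM-scaled library sizes, linear from 0) in the 3 groups (horizontal axis). Points are libraries 1 to 3 from left to right, the long black dash is the mean and the bars are the SD. All KO Ly6Clo points lie below all wild-type points in each of the 6 panels.

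Per length, the genes covered a wide range. In TPM, transcript abundance per length as deposited, the WT Ly6Clo order was Gm19951 at 375 ± 122, Vill at 56.4 ± 8.68, Hnmt at 15.0 ± 5.24, Stxbp6 at 6.82 ± 1.94, Gspt2 at 2.2 ± 0.816 and Plcb1 at 1.95 ± 1.23. The last 2 did not differ beyond their spread. Among the genes tested, these means stood at percentiles 97.9, 83.6, 62.4, 49.9, 34.2 and 32.5. In KO Ly6Clo the TPM means stood at percentiles 82.8, 64.0, 18.5, 16.5, 0 and 0.289 in the same order of genes. Gm19951 and Vill thus remained in the upper part of the range while Gspt2 and Plcb1 were at its bottom. In WT Ly6Chi the order differed, with Stxbp6 (67.3 ± 7.75 TPM) and Plcb1 (19.8 ± 5.13 TPM) above Hnmt (11.9 ± 1.78 TPM).

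The second comparison asked how the 6 genes differ between the wild-type subsets. It did not choose the genes, but it shares the WT Ly6Clo libraries with the comparison that did. Stxbp6 and Plcb1 fell from Ly6Chi to Ly6Clo monocytes, and the other 4 did not pass the test. Of all genes tested, 3.51% were called in this comparison by edgeR (298 lower, 1.62%, and 345 higher, 1.88%), so 2 of 6 lower is a higher share, in genes that were chosen for another difference.

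Stxbp6 fell from 117 ± 12.7 to 11.9 ± 4.08 CPM (edgeR, -3.30 with an SE of 0.43 on the log2 scale, adjusted p = 0.0054). It passed in each of the 17 alternatives run (adjusted p from 4e-13 to 0.036). Plcb1 fell from 72.0 ± 18.5 to 7.09 ± 4.42 CPM (edgeR, -3.34 with an SE of 0.57 on the log2 scale, adjusted p = 0.017). It passed in 14 of 17 alternatives, and missed without WT Ly6Chi replicate 1 (edgeR adjusted p = 0.055) or 3 (0.061) or WT Ly6Clo replicate 2 (0.062). Both genes thus kept about the same share of the Ly6Chi level in WT Ly6Clo monocytes, 10.2% and 9.85%.

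Vill was at 62.1% of its Ly6Chi level in WT Ly6Clo (edgeR, -0.69 with an SE of 0.18 on the log2 scale, adjusted p = 0.084), and passed by DESeq2 (adjusted p = 0.01), which called 5.64% of all genes lower. Gspt2 was at 37.5% (edgeR, -1.42 with an SE of 0.51 on the log2 scale, adjusted p = 0.21). Without WT Ly6Chi replicate 3, which had the other sex-linked pattern, this X-linked gene was at -1.4 on the log2 scale (edgeR adjusted p = 0.35). The libraries of the subsets did not overlap for either gene, which held for 14.7% of all genes in the lower direction. They did not overlap for Gm19951 either, which was higher in each WT Ly6Clo library, as were 13.6% of all genes. Hnmt was at 6.87 ± 0.963 CPM in WT Ly6Chi and 8.54 ± 2.61 in WT Ly6Clo (edgeR, 0.31 with an SE of 0.34 on the log2 scale, adjusted p = 0.7). Gm19951 was at 110 ± 13.9 and 161 ± 46.5 CPM (edgeR, 0.55 with an SE of 0.26 on the log2 scale, adjusted p = 0.3). A p above the threshold does not show that these levels are equal.

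**Figure D2:**
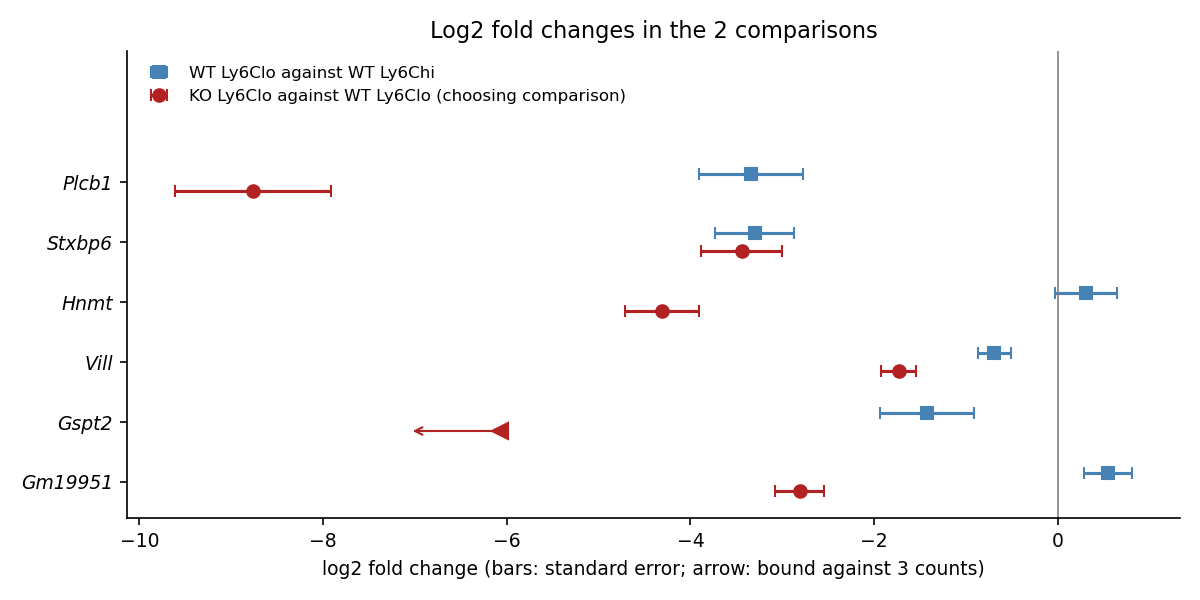
Log2 fold change (horizontal axis) of each gene (vertical axis) for WT Ly6Clo against WT Ly6Chi (blue squares) and for KO Ly6Clo against WT Ly6Clo (red circles), the comparison that chose the genes. Bars are standard errors from edgeR, and the red triangle with an arrow is the bound for Gspt2 against 3 counts per KO library. In the blue series Plcb1 and Stxbp6 lie near -3.3 and Hnmt and Gm19951 above 0.

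Both kinds of order among the groups occurred. Plcb1, Stxbp6, Vill and Gspt2 were highest in WT Ly6Chi, lower in WT Ly6Clo and lowest in KO Ly6Clo. Hnmt and Gm19951 had their highest mean in WT Ly6Clo and their lowest in the KO. The KO libraries were below every WT Ly6Chi library for all 6 genes, a relation found for 11.7% of the genes tested. This comparison, in which edgeR called 4.52% of all genes and 2.46% lower, shares its KO libraries with the one that chose the genes. Pooled over libraries, the WT Ly6Chi level of Plcb1 was 4770 times the KO level, with a 95% exact interval of 1860 to 17500 that covers counting error only. The KO mean was 0.927% of the WT Ly6Chi mean for Stxbp6, 6.24% for Hnmt, 18.8% for Vill and 20.9% for Gm19951.

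The 6 Ly6Chi markers summed to 7940 to 10500 CPM in WT Ly6Chi, 149 to 166 CPM in WT Ly6Clo and 124 to 207 CPM in KO Ly6Clo, and edgeR called 0 of them between the Ly6Clo groups. Ly6c2 in single Ly6Clo libraries was at 0.235% to 0.563% of the WT Ly6Chi mean in WT and at 0.226% to 0.406% in KO. Plcb1 stood at 3.0% to 14.8% in WT Ly6Clo, and at 0% to 0.0292% in KO Ly6Clo, above the Ly6c2 share in each WT library and below it in each KO library. Stxbp6 stood at 6.97% to 13.9% in WT and at 0.375% to 1.22% in KO Ly6Clo. The Ly6Chi marker Ccr2 stood higher than Ly6c2, at 7.19% to 8.61% in WT and 8.41% to 16.1% in KO Ly6Clo. Fn1 stood at 0.211% to 0.651% in WT and 0.0147% to 0.0807% in KO Ly6Clo, and F13a1 at 0.00849% to 0.188% and 0% to 0.11%. In KO replicate 3 Plcb1 (0.0244%) was above both Fn1 (0.0147%) and F13a1 (0%). Fn1, and Chil3 at 5.71 to 14.5 CPM in WT and 0 to 0.369 CPM in KO, were lower in KO Ly6Clo without overlap, and their part in the levels of the 6 genes was not tested.

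Of the markers of other cell types, in 8 lists, edgeR called 0 between the Ly6Clo groups, where it called 0.0709% of all genes. Their summed levels overlapped between WT and KO Ly6Clo. In WT and KO Ly6Clo, they ran from 1.27 to 4.62 and 2.1 to 32.8 CPM for neutrophil markers. They ran from 9.75 to 91.6 and 15.1 to 123 CPM for eosinophil, basophil and mast cell markers, and from 92.8 to 186 and 83.5 to 183 CPM for dendritic cell markers. They ran from 573 to 746 and 562 to 704 CPM for red pulp macrophage markers, from 488 to 703 and 141 to 551 CPM for B cell markers, and from 74.5 to 286 and 33 to 337 CPM for T and NK cell markers. They ran from 404 to 3340 and 1.23 to 7550 CPM for erythroid markers and from 44.4 to 76.4 and 50.2 to 82.8 CPM for platelet and megakaryocyte markers. No list was wholly at 0 in either group, and 1 neutrophil marker, Ngp, had 0 counts in WT Ly6Clo. Some single markers did not overlap. The dendritic cell marker Cd209a was lower in KO (4.93 to 59.9 against 1.27 to 2.24 CPM). Higher in KO were the dendritic cell marker Zbtb46 (mean 15.9 against 31.6 CPM) and Ngp (0.0155 to 4.07 CPM in KO). So was Siglecf of the eosinophil, basophil and mast cell list (0 to 0.993 against 1.21 to 2.7 CPM). The part of the markers of other cell types in the levels of the 6 genes was not tested. The 6 general monocyte markers summed to 21500 to 23700 CPM in WT Ly6Clo and 14300 to 17900 CPM in KO Ly6Clo with 0 called, so these groups did not overlap on that sum. Lyz2 made up most of it, at 14400 to 17000 CPM in WT and 7460 to 11500 CPM in KO. Lyz2, Itgam and Cd68 were lower in KO without overlap, and Csf1r and Cx3cr1 overlapped. Fcgr1 was higher in KO without overlap (17.2 to 21.7 against 23.5 to 43.2 CPM). The 10 Ly6Clo markers summed to 12200 to 21500 CPM in WT and 8800 to 15100 CPM in KO Ly6Clo, with 0 called by edgeR. Each of them had a lower mean in KO. Treml4 (1440 to 1840 against 1170 to 1210 CPM) and Eno3 (861 to 1170 against 629 to 806 CPM) were lower without overlap. The part of these shifts in the levels of the 6 genes was not tested. Between the wild-type subsets, where edgeR called 3.51% of all genes, 5 of the 8 neutrophil markers were called lower in WT Ly6Clo. The 8 summed to 283 to 801 CPM in WT Ly6Chi and 1.27 to 4.62 CPM in WT Ly6Clo. There, 1 dendritic cell marker was also called lower and 1 red pulp macrophage marker higher. Their part in the fall of Plcb1 and Stxbp6 between the subsets was not tested.

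The file names hold 2 runs of library numbers. The first has 1 WT Ly6Chi, 2 WT Ly6Clo and 2 KO libraries, and the second has 2 WT Ly6Chi, 1 WT Ly6Clo and 1 KO library. In the first, Plcb1 was at 9.56 CPM in WT Ly6Clo and 0.0105 in KO, and in the second at 2.16 and 0.0176. Stxbp6 was at 13.8 and 1.41 CPM in the first and 8.15 and 0.439 in the second. Hnmt stood at 8.47 and 0.433, then 8.69 and 0.421 CPM. Vill stood at 82.3 and 25.6, then 77.0 and 21.8 CPM, and Gm19951 at 172 and 22.1, then 138 and 24.4 CPM. Gspt2 was at 2.17 and 3.72 CPM in WT Ly6Clo and at 0 in KO. Since the groups do not overlap for any of the 6 genes, the direction within a run is fixed by how they were chosen. The wild-type subsets were split unevenly over the runs. With a covariate for the run, WT Ly6Clo against WT Ly6Chi gave log2 fold changes of -3.93 for Plcb1 and -3.63 for Stxbp6 (edgeR adjusted p = 0.015 and 0.0038).

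The pathways around the 5 coding genes were next set beside them, in 6 lists of 106 further genes, of which 96 could be tested. In KO against WT Ly6Clo monocytes 0 of the 96 passed by edgeR, DESeq2 or limma-voom. Over all genes edgeR called 0.0709% there and DESeq2 called 277 genes. At edgeR's share a list of this size would hold few or no calls. The counts of 0, here and for the single lists below, therefore do not show that these pathways are unchanged. Of the 96, 7 had an unadjusted edgeR p under 0.05 (7.29%, against 6.16% of all genes). Their median log2 fold change was -0.01, beside 0.03 over all genes tested. Between the wild-type subsets 5 of 96 passed by edgeR (5.21%, against 3.51% of all genes), 2 higher and 3 lower in Ly6Clo. The median was 0.05, beside 0 over all genes.

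In the phospholipase C list 0 of 24 tested genes passed in the KO comparison, with a median log2 fold change of 0.01. Its most abundant genes were Prkcd, a protein kinase C that diacylglycerol activates, at 1850 ± 118 CPM in WT and 1670 ± 118 in KO Ly6Clo, and Plcg2, the phospholipase of immune receptors, at 807 ± 137 and 725 ± 208 CPM. Between the wild-type subsets the kinase Prkcb rose from 172 ± 18.9 to 321 ± 50.5 CPM in Ly6Clo (edgeR, 0.90 on the log2 scale, adjusted p = 0.049), the 1 call of that list.

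Among SNARE proteins and their regulators 0 of 31 passed in the KO comparison (median -0.03). Stxbp2, a syntaxin chaperone in granule release, was at 324 ± 14.9 and 292 ± 17.8 CPM in WT and KO Ly6Clo, and the endosomal syntaxin Stx7 at 239 ± 43.5 and 263 ± 78.1. Between the wild-type subsets Stx3, a plasma membrane syntaxin, fell from 80.5 ± 5.85 to 7.46 ± 4.14 CPM in Ly6Clo (edgeR, -3.43 on the log2 scale, adjusted p = 0.0051). Vamp5 rose from 6.94 ± 2.58 to 21.5 ± 2.71 CPM (edgeR, 1.63 on the log2 scale, adjusted p = 0.04). In KO Ly6Clo Stx3 stood at 8.72 ± 3.69 CPM, within the spread of WT Ly6Clo.

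Histamine genes were scarce. Of 11, 6 could be tested and 0 passed in either comparison. Hdc, which makes histamine, was at 0.0183, 5.22 and 8.95 CPM in WT Ly6Clo and at 0, 13.4 and 28.2 CPM in KO Ly6Clo, so the groups overlapped. The receptor Hrh2 was at 2.84 ± 2.12 and 6.76 ± 4.19 CPM. Of the S-adenosylmethionine cycle, which supplies the methyl group Hnmt uses, 0 of 9 tested genes passed in the KO comparison (median -0.01), with Mat2a at 399 ± 86.7 and 371 ± 80.2 CPM and Mat2b at 183 ± 21.9 and 171 ± 35.9 CPM.

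In the villin and gelsolin family 0 of 7 tested relatives of Vill passed in the KO comparison (median 0.11). Flii was at 356 ± 43.3 and 368 ± 86.9 CPM in WT and KO Ly6Clo, and the filament-severing Gsn at 156 ± 15.6 and 204 ± 65.9 CPM. Capg, which caps actin filaments, fell from 543 ± 120 CPM in WT Ly6Chi to 16.7 ± 4.15 in WT Ly6Clo (edgeR, -5.02 on the log2 scale, adjusted p = 0.00075) and was at 16 ± 5.91 CPM in KO. Scin was at 0.291 ± 0.377 CPM in WT and 3.59 ± 2.41 in KO Ly6Clo (edgeR adjusted p = 0.69). Gsn and Scin were named after their values were seen.

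Among genes of translation termination and ribosome release, 0 of 19 besides Gspt2 passed in either comparison. The helicase Upf1 of nonsense-mediated decay was at 185 ± 32.3 CPM in WT and 185 ± 68.3 in KO Ly6Clo, and Paip2, which binds the poly(A)-binding protein, at 175 ± 20.2 and 187 ± 86.8. The median log2 fold change of the list was -0.03 in the KO comparison.

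**Figure D3:**
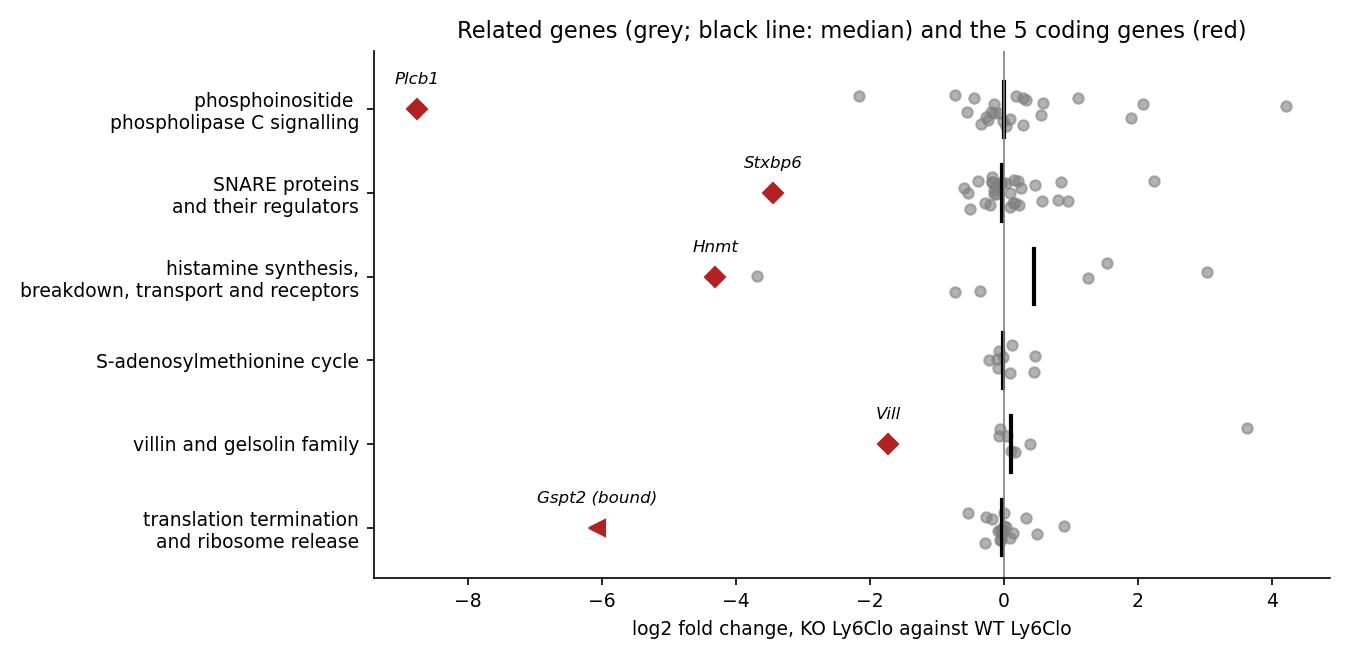
Log2 fold change between KO and WT Ly6Clo monocytes (horizontal axis) for the tested genes of each list (grey points, black line at the median) and for the 5 coding genes that the comparison chose (red diamonds, with a triangle for the bound of Gspt2). List medians lie between -0.03 and 0.46, and no grey point passed edgeR's test.

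The genes next to the 6 were examined in windows of 250 kb on either side of each start, and distances are between starts. Of 25 tested neighbours, 0 were called by edgeR or limma-voom between KO and WT Ly6Clo, where edgeR called 0.0709% of all genes. Among them, 5 had an unadjusted edgeR p under 0.05 (20.0%, against 6.16% of all genes). DESeq2 called 2 of them, both lower, in a comparison where it called 131 of 17830 genes lower (0.735%). One was Tmx4, a thioredoxin-related membrane protein 142 kb from the Plcb1 start, at 55.0, 39.5 and 42.2 CPM in WT and 19.2, 24.9 and 21.7 CPM in KO Ly6Clo (log2 fold change -1.05, edgeR adjusted p = 0.21, DESeq2 adjusted p = 0.0012). The other was Efcab11, 241 kb from the Gm19951 start, at 4.13, 8.53 and 4.03 CPM in WT and 0.404, 0.435 and 2.12 CPM in KO (-2.50 on the log2 scale, edgeR adjusted p = 0.5, DESeq2 adjusted p = 0.028). Groups did not overlap for either gene.

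The other nearest coding neighbours overlapped between WT and KO Ly6Clo. Foxn3, a forkhead factor 79.5 kb from Gm19951, was at 289 ± 43.2 CPM in WT and 241 ± 46.3 in KO Ly6Clo. Zxdb, 88.5 kb from Gspt2, was at 2.96 ± 0.806 and 2.85 ± 1.33 CPM, and Maged1 on its other side at 0.192 ± 0.31 and 0.172 ± 0.253 CPM. Next to Vill, Ctdspl was at 0.608 ± 0.792 and 0.48 ± 0.458 CPM. The phospholipase Plcd1, whose start is 40.7 kb away, was at 1.05 ± 0.932 and 0.642 ± 1.1 CPM. It spans 119071527 to 119093502 on the minus strand, so its end abuts that of Vill at 119071525. Il1f9, beside Hnmt, had 0 counts in 2 of 3 libraries of each Ly6Clo group. Noncoding transcripts near Gm19951, named after their values were seen, were low in all groups: Gm47196 at 2.85 CPM in WT and 0.898 in KO Ly6Clo, and Gm47177 at 0.672 and 0.114 CPM, with edgeR adjusted p of 0.76 and 0.71. In windows of 1000 kb 0 of 95 tested neighbours were called by edgeR. Of the 95, 9 had an unadjusted edgeR p under 0.05 (9.47%, against 6.16% of all genes), and Plcb4, beyond Plcb1, was among them.

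**Figure D4:**
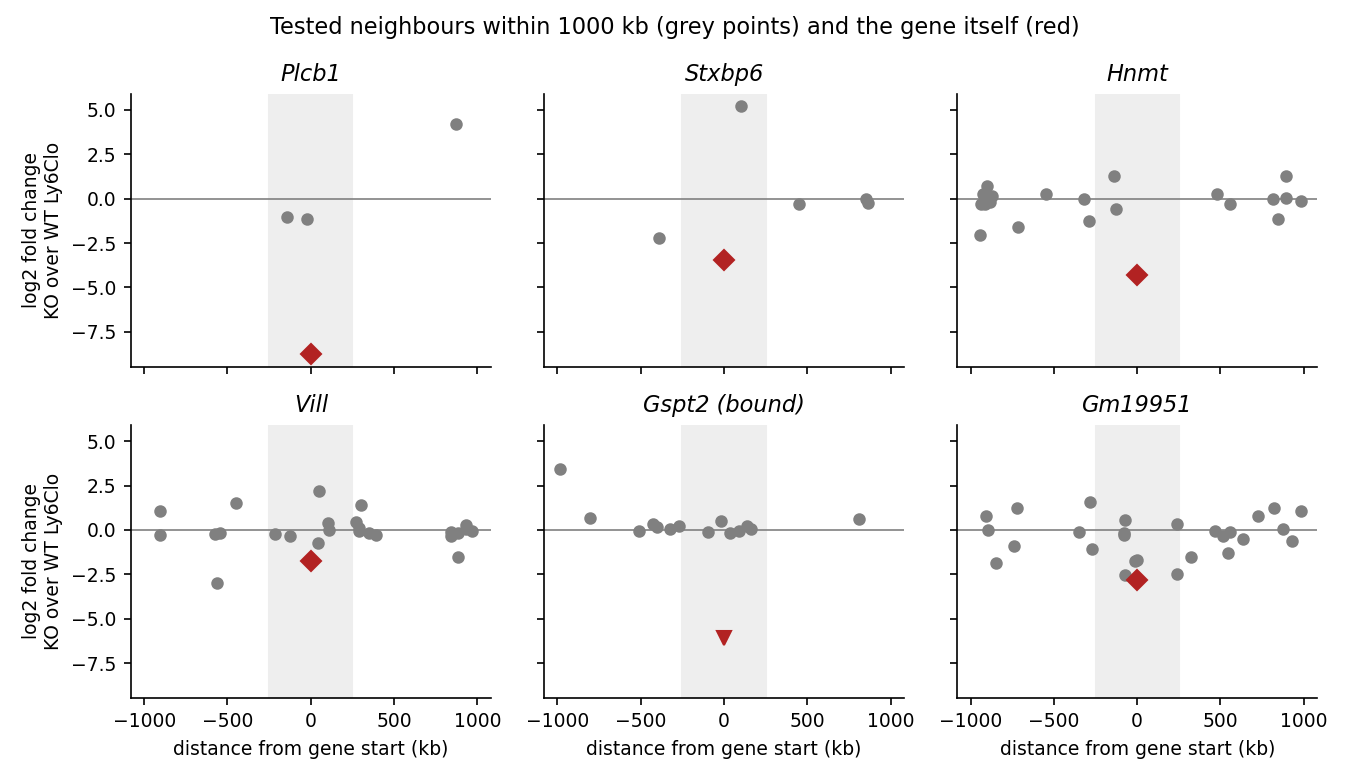
Log2 fold change between KO and WT Ly6Clo monocytes (vertical axis) against the distance from each gene's start in kb, positive in the direction of transcription (horizontal axis). Grey points are tested neighbours, the grey band is 250 kb on either side, and the red symbol is the gene itself (for Gspt2, its bound). No neighbour was called by edgeR, and large values far from 0 belong to genes of low level.

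Genes with the most similar profiles were ranked by the root mean square difference between centred log2(CPM + 1) profiles over the 9 libraries, which uses the KO libraries and is a description. Hnmt and Gm19951 were closest to each other, at 0.28, and Plcb1 and Stxbp6 stood at 0.43. Vill and Gspt2 stood at 0.39, while Plcb1 and Gm19951 were the farthest pair, at 1.89. Among the 6 genes alone, the closest genes were thus Hnmt with Gm19951, Plcb1 with Stxbp6 and Vill with Gspt2. The 1 CPM added before the log damps changes at low levels, so such a pair need not share a fold change. Vill kept 30.2% of its WT Ly6Clo level in the KO, where Gspt2 had 0 counts.

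Outside the 6, the coding genes nearest to Plcb1 were Sgms2 (0.65), Msr1 (0.79) and Hopx (0.90), and the same 3 were nearest to Stxbp6 (0.49, 0.64 and 0.69). Msr1, the class A scavenger receptor, was at 173 ± 29.9 CPM in WT Ly6Chi, at 27.8 ± 2.9 in WT Ly6Clo and at 1.31 ± 1.65 in KO Ly6Clo. Sgms2, a sphingomyelin synthase, was at 67.6 ± 8.93, 8.76 ± 0.585 and 0.81 ± 0.741 CPM, and the homeodomain protein Hopx at 108 ± 29.0, 13.9 ± 1.26 and 4.24 ± 1.06 CPM. None of the 3 passed edgeR's test between KO and WT Ly6Clo (adjusted p = 0.28, 0.36 and 0.067 for Sgms2, Msr1 and Hopx).

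Nearest to Hnmt were Wls (0.36), Pkd2 (0.40) and Cyp39a1 (0.46), and nearest to Gm19951 were Wls (0.43), Tspan17 (0.46) and Pkd2 (0.52). Pkd2, a calcium-permeable channel of the polycystin family, was at 9.85 ± 0.265 CPM in WT Ly6Chi, at 7.54 ± 2.78 in WT Ly6Clo and at 0.0858 ± 0.0744 in KO Ly6Clo (edgeR adjusted p = 0.053 between KO and WT Ly6Clo). Tspan17, a tetraspanin, was at 34.5 ± 1.82, 40.3 ± 3.69 and 11.6 ± 4.02 CPM (edgeR adjusted p = 0.053). Wls, a carrier of secreted Wnt proteins, was at 89.8 ± 6.75, 74.9 ± 9.25 and 17.5 ± 1.15 CPM. It was called between KO and WT Ly6Clo, with the smallest adjusted p of the lower genes (edgeR adjusted p = 0.0071). Cyp39a1, an oxysterol hydroxylase, was at 19.4 ± 7.12, 17.0 ± 6.54 and 2.18 ± 0.273 CPM (edgeR adjusted p = 0.053).

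Nearest to Vill were Platr17 (0.22), Wls (0.29) and F10 (0.31), and nearest to Gspt2 were Platr17 (0.37), Galnt9 (0.39) and Depdc7 (0.40). F10, which encodes coagulation factor X, was at 195 ± 41.6 CPM in WT Ly6Chi, at 98.5 ± 22 in WT Ly6Clo and at 43.3 ± 1.25 in KO Ly6Clo. Galnt9, a glycosyltransferase, was at 92.4 ± 10.6, 35.2 ± 9.53 and 10.5 ± 4.36 CPM. Both fell from WT Ly6Chi to WT Ly6Clo (edgeR adjusted p = 0.037 for F10 and 0.047 for Galnt9) and did not pass between KO and WT Ly6Clo (edgeR adjusted p = 0.15 each). Depdc7 was at 15.5 ± 2.65, 4.46 ± 2.2 and 1.12 ± 0.142 CPM and Platr17 at 5.98 ± 1.48, 3.6 ± 0.564 and 0.356 ± 0.219 CPM.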

How the data were processed

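RNA of sorted splenic monocytes was sequenced in 9 libraries (3 groups of 3, groups and replicate numbers from the titles). Per the labels' protocols, SMARTer Ultra Low libraries were sequenced as paired reads. Per the file headers, the tables give a raw count of whole reads for each gene. The CPM, FPKM and TPM columns were deposited by the authors beside them. TPM was used to set genes side by side, and CPM and FPKM as deposited were not used. The submitters' processing notes name STAR 2.5.1a, featureCounts 1.4.6-p5, Salmon 0.8.2, edgeR and limma with no role stated, and GRCm38 as the build. No source used here says whether counting used strand. Symbols came from GENCODE M21, matched for 99.53% of IDs.

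Testing used edgeR 4.0.16 under R 4.3.3. Genes were filtered with filterByExpr by group (a minimum of 10 counts), which kept 18341 genes and all 6 described here. The fit had TMM scaling, 1 term per group over the 9 libraries, glmQLFit and glmQLFTest, Benjamini-Hochberg over all genes. The standard error is the log2 fold change over the root of F. Alternatives were RLE scaling, 2 other filters, DESeq2 1.42.0, limma-voom (limma 3.58.1), the 2 groups alone, the replicate block, a covariate for the library-number run, and each library left out. Code was tested on simulated counts. The genes and lists were chosen with earlier results of these data known. Named are the 6 genes, Cebpa and Gspt1. Per list, named are up to 3 called genes, or the 2 most abundant where none was called. Per gene, the nearest tested coding neighbour on each side within 250 kb and the 3 nearest coding profiles are named. Not every result that this rule names is reported here. The level for 3 counts ran from 0.0199 to 0.0626 CPM per library. Intervals and limits cover counting error only. Replicates were compared by chi-square per gene (49.1 to 425), and none differed as little as sampling noise.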

Additional observations from a re-analysis of the deposited data

How the results depend on the processing

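Between KO and WT Ly6Clo, where the choice of the 6 genes fixes the direction, the log2 fold changes ran over 17 alternatives from -9.47 to -8.37 for Plcb1, from -3.72 to -3.09 for Stxbp6, from -4.51 to -4.09 for Hnmt, from -1.87 to -1.65 for Vill and from -2.99 to -2.57 for Gm19951. The count of genes called in that comparison was 13 (2 higher, 11 lower) and moved to 54 with no filter on low counts, 27 with a filter of 1 CPM in 3 libraries, 277 by DESeq2 (146 higher, 131 lower) and 0 (edgeR) when only those 2 groups were fitted. It ran from 2 (without WT Ly6Clo replicate 3) to 21 (without KO replicate 1) when single libraries were left out, and was 5 without WT Ly6Chi replicate 3 or WT Ly6Clo replicate 2 and 8 without WT Ly6Clo replicate 1. Between the wild-type subsets it was 643, moved to 1968 by DESeq2 and ran from 239 to 847 with single libraries left out, the 6 fits without a wild-type library giving 239 to 342. The cause was not tested. DESeq2 called 2 neighbouring genes where edgeR called 0. With the replicate block the counts were 13 and 949. Same-numbered libraries of the 2 Ly6Clo groups had correlated deviations of 0.28, 0.19 and 0.05. Replicate 1 of WT Ly6Chi also correlated with replicate 1 of WT and KO Ly6Clo, at 0.2 and 0.21, and its replicates 2 and 3 at 0 to 0.1. The numbers were not taken as pairs in the main fit, and these values do not decide whether they are. Each WT Ly6Clo library correlated best with the KO library of its own number, as a hint from the data. The KO libraries were not ranked in turn. With 0 to 4 counts in a group, depth limits what can be said of Gspt2 and Plcb1 in the KO to bounds and intervals.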
